A study of Mus musculus with 8 samples.

Results

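The brain-expressed X-linked (Bex) genes were represented on the array by 5 genes, *Bex1*, *Bex2*, *Bex3*, *Bex4* and *Bex6*, of 20660 genes that could be matched, and by 7 of 55681 distinct probes. The members were found by matching the RefSeq accession of each non-control probe to a Bex gene. The family was selected on the measured rise of *Bex6* in embryos of mutant fathers, so its values in that comparison are given as a description, without p-values, and the calls it received in the fit of all probes are counted but support nothing. *Bex1* and *Bex6* had 2 probes each and the other genes had 1. Of the 7 probes, 6 passed the expression filter that 29718 probes passed in all. The probe left out was the second *Bex6* probe, which no array measured well above background.

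The series measured whole E8.5 mouse embryos that all carried 1 copy of the Eedl7Rn5-1989SB allele, a hypomorphic (partial loss-of-function) allele of *Eed*, a core subunit of the histone methyltransferase complex PRC2. Wild-type C57bl6/129 females were mated to C57bl6/129 males that were either homozygous (HOM) or heterozygous (HET) for this allele. Each group held 4 embryos, 2 female and 2 male, and RNA of each embryo was hybridised to 1 single-colour array. The comparison asked whether the genotype of the father was associated with expression in offspring of 1 genotype. The *Eed* allele was carried by the whole animal in both groups of fathers, and no file or label gives the sire or litter of an embryo. By the study's account there were fewer fathers than embryos in each group, so that p-values measure the spread between embryos and not between fathers. The study also describes the HOM and HET fathers as littermate brothers. That pairing could not be fitted without the sire of each embryo. The HOM-father and HET-father embryos were also on separate slides, so slide and father cannot be told apart. Between 51.9% and 60.8% of spots were well above background on each array, and no spot was saturated.

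Bex genes encode small, mostly unstructured proteins that act as adaptors in cell signalling, and most of them lie side by side on the X chromosome beside the related *Tceal* genes. They are best known from the nervous system, where *Bex1* and *Bex3* act downstream of the p75 neurotrophin receptor (*Ngfr*). *Bex3*, also called *Ngfrap1* or *Nade*, binds the cytoplasmic part of that receptor. *Bex6* lies apart from its relatives, on an autosome, and is listed by the study as a retrotransposed copy of *Bex4*, that is, a copy made by reverse transcription of a messenger RNA. Such copies usually leave the promoter of the parent gene behind.

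The sequence at the annotated start of each gene shows how the family divides. Windows of 3 genes are given, 1 for each kind of start found, each running from 250 bases before the annotated start to 50 bases after it in the direction of transcription. They are RefSeq sequences of mouse build GRCm38.p6 and all 5 genes were matched. Capitals mark CG dinucleotides, the sites of most DNA methylation. The *Bex6* window is on the plus strand at chr16:32179550-32179849, that of *Bex4* on the plus strand at chrX:136138746-136139045, and that of *Bex3* on the plus strand at chrX:136270003-136270302.
Bex6: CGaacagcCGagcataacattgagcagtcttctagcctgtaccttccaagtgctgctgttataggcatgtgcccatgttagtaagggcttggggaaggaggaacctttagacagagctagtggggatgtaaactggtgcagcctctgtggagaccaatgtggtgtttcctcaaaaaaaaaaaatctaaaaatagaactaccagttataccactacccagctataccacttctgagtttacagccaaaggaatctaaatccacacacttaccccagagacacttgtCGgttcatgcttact
Bex4: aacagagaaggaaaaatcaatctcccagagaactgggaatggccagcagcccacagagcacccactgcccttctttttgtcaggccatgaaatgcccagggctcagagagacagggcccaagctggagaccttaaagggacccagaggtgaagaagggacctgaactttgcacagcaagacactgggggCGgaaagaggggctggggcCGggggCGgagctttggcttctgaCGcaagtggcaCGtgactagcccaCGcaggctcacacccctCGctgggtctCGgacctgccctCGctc
Bex3: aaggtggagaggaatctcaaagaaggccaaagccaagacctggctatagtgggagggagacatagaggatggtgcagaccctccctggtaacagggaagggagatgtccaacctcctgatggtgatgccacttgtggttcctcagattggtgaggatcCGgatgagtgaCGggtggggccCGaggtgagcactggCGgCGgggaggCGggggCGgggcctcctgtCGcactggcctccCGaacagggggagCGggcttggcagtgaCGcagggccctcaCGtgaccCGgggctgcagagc

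The *Bex1* window, on the minus strand at chrX:136215464-136215763, was nearly the same as that of *Bex4*. The pair matched at 291 of 294 aligned bases (98.98%) and shared an unbroken run of 271 bases. The *Bex2* window, on the minus strand at chrX:136068187-136068486, resembled that of *Bex3*, with 231 of 261 aligned bases identical (88.51%) and a shared run of 162 bases. *Bex6* shared no run longer than 9 bases with any of the other 4 windows. The longest run was also 9 bases between *Bex1* or *Bex4* and *Bex2* or *Bex3*. Identity of aligned bases was between 50% and 63.59% for *Bex6* with the others. It was between 58.71% and 62.2% for *Bex1* or *Bex4* with *Bex2* or *Bex3*.

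The windows also differed in CG content. *Bex6* held 3 CG dinucleotides and 45% G or C, whereas *Bex1* held 8, *Bex4* 9, *Bex2* 12 and *Bex3* 13, with a G or C content of between 56.33% and 63.67%. Over 32851 mouse windows of the same length the median was 7, and 31.38% of them held as few as *Bex6*. The letters GGGCGG, searched on both strands, occurred 2 times in *Bex1* and *Bex4*, once in *Bex2* and *Bex3* and not in *Bex6*, and in 35.66% of all windows. CCAAT, on both strands, occurred once in *Bex2*, *Bex3* and *Bex6* and in 37.41% of all windows. TATAAA, on both strands, occurred once in *Bex2*, in no other Bex window and in 13.62% of all windows. None of these motifs contains another.

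**Figure D1:**
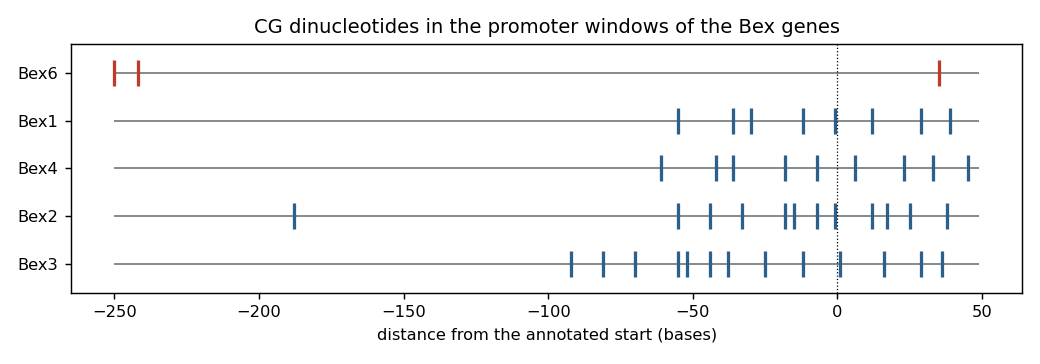
Position of each CG dinucleotide (vertical mark) in the promoter window of each Bex gene, with distance from the annotated start in bases on the horizontal axis and the start as a dotted line. The 4 X-linked genes have between 8 and 13 CG dinucleotides, most of them near the start, whereas *Bex6* has 3, of which 1 lies after the start and the others at the far end of the window.

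*Bex6* was the member that differed between the groups by more than 2-fold. Levels are given as normalised signal, which is log2 of the processed intensity minus the 75th percentile of the array, so that 0 is that percentile. On probe A_55_P2028832 the signal was -1.35, -1.18, -1.48 and -1.16 in the 4 embryos of HOM fathers. In the 4 embryos of HET fathers it was -4.98, -4.87, -4.91 and -4.33. All embryos of HOM fathers were higher than all embryos of HET fathers, and 2.85 log2 units separated the nearest embryos of the groups.

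The group means of *Bex6* were -1.29 ± 0.15 and -4.77 ± 0.30 (SD, n = 4 each), a difference of 3.48 on the log2 scale or 11.2-fold. With normexp background correction of the median pixel in place of the processed signal the difference was 2.29. The processed intensity was between 585 and 697 in embryos of HOM fathers and between 44.2 and 68.3 in embryos of HET fathers. The probe was well above background on 4 of 4 arrays of the first group and on 2 of 4 arrays of the second, those of replicates 1 and 4. The low level in embryos of HET fathers was therefore close to the limit of the measurement. The flag did not follow brightness, since replicate 1, which had it, was at 45.3 and replicate 2, which did not, at 49.3. Of all tested probes, 3 had a larger fitted rise than *Bex6*.

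The unprocessed spots also separated the groups without overlap, though not by the same ratio as the processed intensity. The median pixel of the *Bex6* spot was 740, 779, 694 and 703 in embryos of HOM fathers, against a local background of between 28 and 42. In embryos of HET fathers it was 116, 119, 112 and 148, against a local background of between 35 and 41. The spot was thus between 17.6 and 27.8 times its local background in the first group and between 2.73 and 3.79 times in the second. Spot minus local background was between 661 and 751 in the first group and between 71 and 109 in the second. The background around the spot overlapped between the groups.

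The second *Bex6* probe, A_55_P2101880, carries the same transcript accession and did not show this difference. It was not well above background on any of the 8 arrays, and its spot was between 1.26 and 1.87 times the local background in embryos of HOM fathers and between 1.33 and 1.55 times in embryos of HET fathers. Its normalised signal was -7.28 ± 0.50 and -7.23 ± 0.43 (SD, n = 4 each), and no fold change is given because neither group was well above background. In these array data the rise of *Bex6* therefore rests on 1 probe of 2. The study also sequenced RNA of the same E8.5 embryos and lists genes that both methods found. Those sequencing data were not used here. Where each probe lies in the transcript, and whether the brighter one also binds transcripts of related genes, was not tested.

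**Figure D2:**
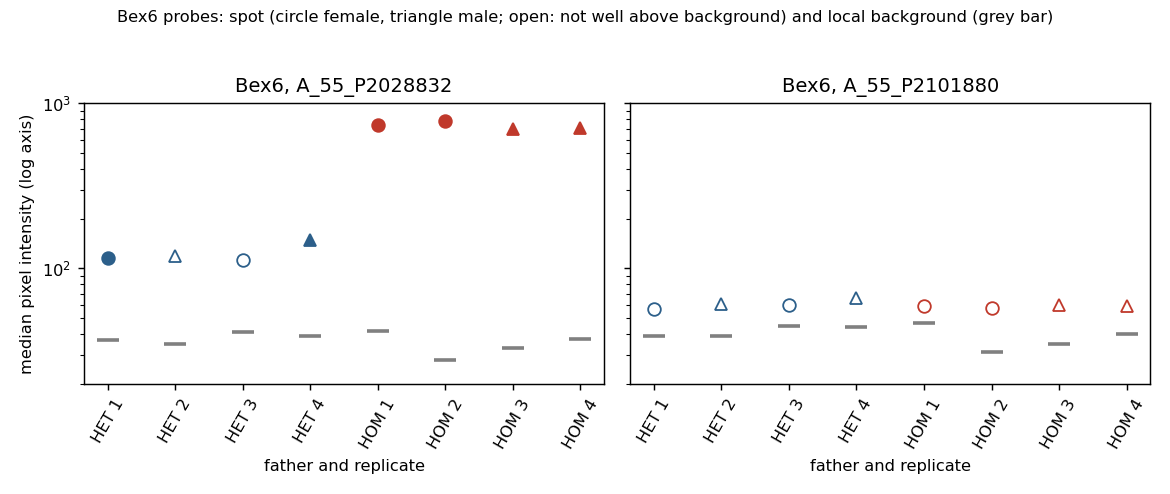
Median pixel intensity (log axis) of the spot and of the local background (grey bars) for the *Bex6* probes in each of the 8 embryos, ordered by father and replicate, with circles for females, triangles for males and open symbols for spots not well above background. On probe A_55_P2028832 the HOM-father spots lie between 694 and 779 and the HET-father spots between 112 and 148, while on probe A_55_P2101880 all spots lie between 57 and 66.

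The X-linked members were bright on every array and differed little between the same embryos. The first probe of *Bex1*, a gene linked to neurotrophin signalling and neuronal differentiation, is A_55_P2031021. Its normalised signal was 6.77, 6.79, 6.65 and 6.72 in embryos of HOM fathers and 6.78, 6.72, 6.74 and 6.70 in embryos of HET fathers. The groups overlapped, and the difference of their means was -0.00 on the log2 scale. The second *Bex1* probe, A_65_P16753, gave 5.32, 5.27, 5.18 and 5.32 against 5.34, 5.35, 5.26 and 5.33, a difference of -0.05, again with overlapping groups. The *Bex1* differences were 0.11 and 0.04 with quantile normalisation and -0.19 and -0.24 with median scaling, a setting in which the median of all tested probes moved from -0.03 to -0.22.

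*Bex2*, whose product is found in transcription factor complexes, was measured by A_51_P237668. Its signal was 5.72, 5.70, 5.57 and 5.53 in embryos of HOM fathers and 5.66, 5.61, 5.80 and 5.76 in embryos of HET fathers. The difference was -0.08, and both groups had an SD of 0.09. It was -0.03 with quantile normalisation and -0.27 with median scaling. *Bex4*, the listed parent of *Bex6*, was measured by A_55_P1967683 and gave 6.48, 6.37, 6.31 and 6.38 against 6.39, 6.35, 6.35 and 6.32. The groups overlapped, with a difference of 0.03 that became 0.11 with quantile normalisation and -0.16 when arrays were scaled to their medians.

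*Bex3* was the X-linked member whose groups did not overlap. On probe A_55_P2149615 the signal was 4.89, 5.05, 4.93 and 4.94 in embryos of HOM fathers and 5.13, 5.13, 5.28 and 5.29 in embryos of HET fathers. All HOM-father embryos were below all HET-father embryos, by at least 0.07. The means were 4.95 ± 0.07 and 5.21 ± 0.09 (SD, n = 4 each), a difference of -0.25 on the log2 scale or 0.839-fold. The difference was negative with each scaling, at -0.18 with quantile normalisation and -0.44 with median scaling.

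**Figure D3:**
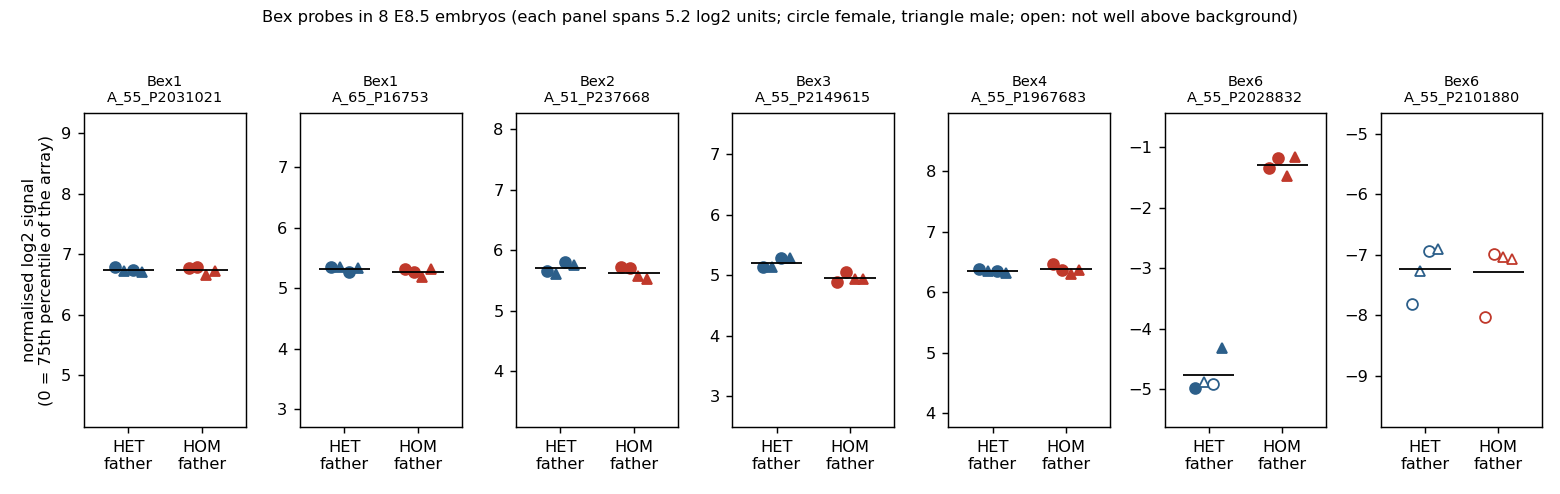
Normalised log2 signal of the 7 Bex probes in 8 embryos by father (HET blue, HOM red), with circles for females, triangles for males, open symbols for spots not well above background and a line at each group mean. Every panel spans the same number of log2 units, so that the step of 3.48 on the first *Bex6* probe can be set against differences of between -0.25 and 0.03 on the *Bex1* to *Bex4* probes.

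Counts over the 6 tested Bex probes are given beside those over all tested probes, and nothing is read from them because this contrast chose the family. At the limits of the study, an adjusted p below 0.01 with at least 2-fold change in limma, 1 Bex probe (*Bex6*) was higher in embryos of HOM fathers, where 1.22% of all tested probes were, and none was lower, where 0.0269% were. At an adjusted p below 0.05 with no fold limit, 1 probe was higher (*Bex6*, background 12.2%) and 1 lower (*Bex3*, background 9.08%). *Bex3* lost that call without HOM-father replicate 1, 3 or 4 and without HET-father replicate 3 or 4, with differences of between -0.25 and -0.23. All HOM-father embryos were above all HET-father embryos on 1 Bex probe (background 13.9%) and below them on 1 (background 13.5%).

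**Figure D4:**
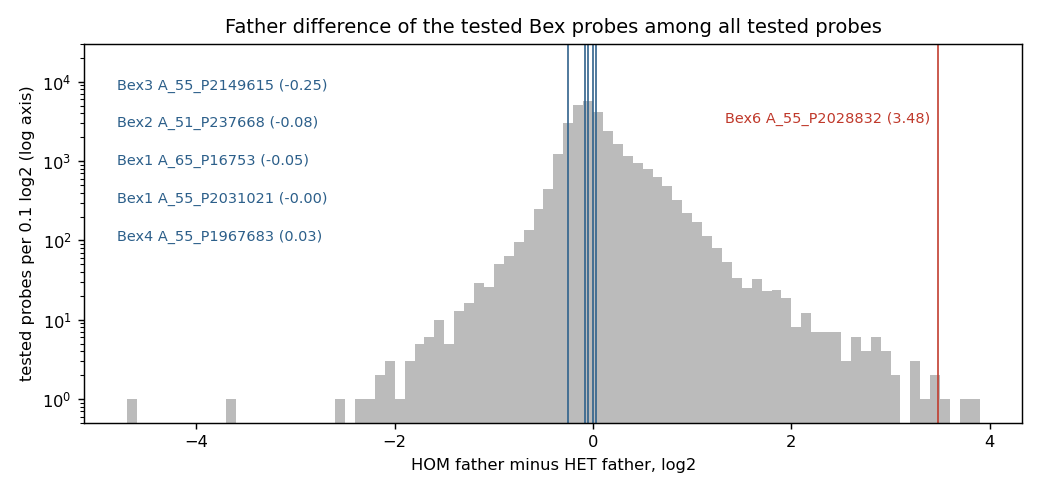
Number of tested probes (log axis) by the difference between HOM-father and HET-father means on the log2 scale, in steps of 0.1, with vertical lines at the 6 tested Bex probes. The 5 lines of *Bex1* to *Bex4* lie between -0.25 and 0.03, within the bulk of the 29718 probes, and that of *Bex6* lies at 3.48, with 3 tested probes beyond it.

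A ratio within each array is not changed by subtracting a constant from the whole array, as percentile and median scaling do. Quantile normalisation can change it. The *Bex6* signal minus the mean of the 5 *Bex1* to *Bex4* probes was -7.18, -7.02, -7.21 and -6.94 in embryos of HOM fathers. In embryos of HET fathers it was -10.84, -10.70, -10.80 and -10.21. The groups did not overlap, and the means of -7.09 ± 0.13 and -10.64 ± 0.29 (SD, n = 4 each) differed by 3.55 on the log2 scale, or 11.7-fold. The mean of the 5 family probes was 5.79 ± 0.05 and 5.86 ± 0.03, a difference of -0.07. In embryos of HET fathers *Bex6* was close to the limit of the measurement, as stated, and well above background on only 2 of 4 arrays. The difference was 3.33 with quantile normalisation and 2.38 with normexp correction.

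Embryo sex was not used in choosing the family and was tested with father as a covariate. This comparison bears on 4 X-linked genes, of which female cells carry 2 copies and silence 1. The check gene for sex, *Xist*, the RNA that silences the inactive X chromosome, was called higher in females on 2 of 2 probes. No Bex probe was called by sex at an adjusted p below 0.01 with 2-fold change, where 0.0606% of all tested probes were. None was called at an adjusted p below 0.05 (background 0.121%), and none had an unadjusted p below 0.05 (background 5.19%).

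The widest of these differences on an X-linked gene was for *Bex2*, at 0.10 higher in females on the log2 scale (95% interval -0.04 to 0.25, limma adjusted p = 0.927). *Bex1* differed by 0.08 on its first probe (-0.03 to 0.18, adjusted p = 0.927) and by 0.01 on its second (-0.12 to 0.13, adjusted p = 0.993). *Bex4* differed by 0.05 (-0.06 to 0.17, adjusted p = 0.927) and *Bex3* by 0.02 (-0.14 to 0.17, adjusted p = 0.981). Every interval reached above and below 0. With median scaling the differences were wider, at 0.20 for *Bex2*, 0.17 and 0.10 for *Bex1*, 0.15 for *Bex4* and 0.11 for *Bex3*. The lowest limma adjusted p among the Bex probes was then 0.284. This scaling shifts every probe of an array alike, and autosomal *Bex6* moved in the same direction, from -0.14 to -0.05. The wider values are therefore not particular to the Bex genes. Among all 713 tested probes of X-linked genes, scaled to the 75th percentile and not to the median, the median difference was 0.00. Its quartiles were -0.08 and 0.06.

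*Bex6*, which is autosomal, was -1.35 and -1.18 in females and -1.48 and -1.16 in males of HOM fathers. In embryos of HET fathers it was -4.98 and -4.91 in females and -4.87 and -4.33 in males. The difference between the sexes was -0.14 (95% interval -0.51 to 0.22, limma adjusted p = 0.930). The father difference was 3.69 in females and 3.28 in males, and the interaction of 0.41 (95% interval -0.30 to 1.12, limma adjusted p = 0.999) did not pass. The *Bex6* probe passed the expression filter through the HOM-father arrays, with 4 of 4 well above background against 2 of 4 HET-father arrays. Its sex and interaction estimates rest partly on HET-father values close to the limit of the measurement, so nothing is concluded from them. No Bex probe had an interaction at the limits of the study, nor did any other tested probe (background 0%), and none had an unadjusted p below 0.05 (background 4.5%).

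**Figure D5:**
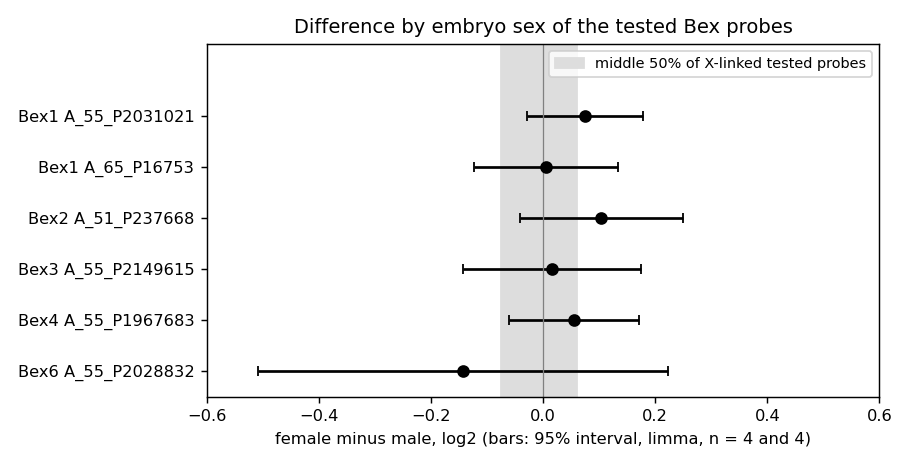
Female minus male difference on the log2 scale for the 6 tested Bex probes, with points for the fitted difference, bars for its 95% interval from limma (n = 4 females and 4 males) and a grey band between the quartiles of 713 X-linked tested probes. All 6 bars cross 0, and the widest is that of *Bex6*, from -0.51 to 0.22.

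The *Tceal* genes, which encode transcription elongation factor A-like proteins and are the closest relatives of the Bex genes, were measured in the same embryos. All 7 of 7 listed genes were tested with 1 probe each. None passed by father at the limits of the study, where 1.22% of all tested probes were higher and 0.0269% lower. None had an adjusted p below 0.05 either (background 12.2% higher and 9.08% lower), and with 7 probes nothing is read from these counts. The median difference was -0.05 on the log2 scale, where that of all tested probes was -0.03. The largest difference was -0.23 for *Tceal7* and the next was -0.11 for *Tceal6*.

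The *Armcx* genes, which encode armadillo-repeat proteins of mitochondria and nucleus, and the *Gprasp* genes, which encode sorting proteins for G protein-coupled receptors, lie in the same X-linked region. Of 9 listed genes 8 were tested, with 11 probes and a median of -0.02. None passed the limits of the study, while at an adjusted p below 0.05 there was 1 probe higher and 1 lower, both of *Armcx3*, where 12.2% and 9.08% of all tested probes were. *Armcx3* was higher by 0.52 on A_55_P2006906 (limma adjusted p = 0.0185) and differed by -0.27 on A_55_P2068977 (adjusted p = 0.0362), so its probes disagreed. *Armcx6* differed by -0.34 on A_55_P2108993 (adjusted p = 0.0764).

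The list of ligands, receptors and partners of the p75 neurotrophin receptor had 11 of 12 genes tested, with 14 probes and a median of -0.05. None passed the limits of the study. At an adjusted p below 0.05, 2 probes of 14 were higher and 1 was lower in embryos of HOM fathers, where 12.2% and 9.08% of all tested probes were. *Ntrk2*, the receptor for brain-derived neurotrophic factor, was higher by 0.74 on A_55_P2006792 (limma adjusted p = 0.000490), while its other 2 probes did not pass the expression filter. *Ngfr*, the receptor that *Bex3* binds, was lower, with means of 1.16 ± 0.12 and 1.66 ± 0.14 (SD, n = 4 each) and a difference of -0.51 (adjusted p = 0.00754).

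Early neural genes stand for the tissue in which the Bex family is best known. Of 10 listed genes 8 were tested, with 9 probes and a median of -0.09. None passed the limits of the study. A single probe, of the neural progenitor factor *Sox1*, was higher at an adjusted p below 0.05 (background 12.2%), by 0.41 on A_55_P2012051 (limma adjusted p = 0.0215), whereas the other *Sox1* probe differed by -0.16. *Nes*, which encodes the filament protein nestin, differed by -0.34 (adjusted p = 0.0733), and *Sox3*, another neural progenitor factor, by -0.29 (adjusted p = 0.0874). On 1 of the 9 probes all HOM-father embryos were below all HET-father embryos (background 13.5%), and on 1 they were above (background 13.9%). The summed linear level of the list was between 15.7 and 19.96 in embryos of HOM fathers and between 21.2 and 23.1 in embryos of HET fathers, relative to the 75th percentile of each array. These sums did not overlap. They weigh the brightest probes most, those of *Sox3* and *Nes*, neither of which passed, and the part of neural tissue content in the values of *Bex3* and *Bex6* was not tested. In whole embryos, fewer cells of a type and less RNA per cell cannot be told apart.

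The dissected material was checked with markers of embryonic and extraembryonic tissue. All 8 embryonic genes were measured, with a median difference of -0.03, and 2 of 10 probes were lower at an adjusted p below 0.05, where 9.08% of all tested probes were, those of *Tbx6* (-0.32, limma adjusted p = 0.0340), a factor of presomitic mesoderm, and *Myl7* (-0.25, adjusted p = 0.0396), an atrial myosin light chain. Of 8 yolk sac endoderm probes, with a median of -0.10, 1 was lower, that of *Apoa1* (-0.41, adjusted p = 0.0137), and *Ttr* differed by -0.16. Of 6 primitive erythroid probes, with a median of -0.28, 1 was lower, and *Klf1*, an erythroid transcription factor, differed by -0.73 (adjusted p = 0.0667). The shares of yolk sac and erythroid probes, 1 of 8 and 1 of 6, stand beside the same 9.08%. None of these passed the limits of the study. The summed levels were between 443 and 581 and between 521 and 551 for yolk sac endoderm, and between 728 and 964 and between 906 and 947 for erythroid cells, in embryos of HOM and HET fathers respectively, so that both overlapped.

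Trophoblast and decidua markers varied between embryos of 1 group. Of 7 genes 5 were tested, with 8 probes and a median of 0.15, while no array measured *Tpbpa* or *Prl3c1* well above background. None passed the limits of the study. *Prl8a2*, a decidual prolactin, was 2.55 ± 2.07 and -0.42 ± 2.84 (SD, n = 4 each), a difference of 2.96 (limma adjusted p = 0.215). *Prl3d1*, a giant cell prolactin, differed by 1.88 (adjusted p = 0.207). *Gcm1*, a labyrinth factor, was lower by 1.07 on A_55_P2114697 (adjusted p = 0.0213), the 1 probe of 8 at an adjusted p below 0.05 (background 9.08%). Its other tested probes differed in the same direction, by -0.99 on A_55_P2154107 (limma adjusted p = 0.0518) and -0.35 on A_55_P1989813 (adjusted p = 0.0964). The summed level was between 17.3 and 47.5 in embryos of HOM fathers and between 31.0 and 48.9 in embryos of HET fathers, and it overlapped. *Bex6* had an SD of 0.15 over the HOM-father embryos in which *Prl8a2* had 2.07, and the part of extraembryonic tissue in the *Bex6* level was not tested.

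The genes around *Bex6* on chromosome 16 were compared next, since *Bex6* lies apart from its family. Of the 5 genes on each side in the reference table, 7 of 10 had probes, and 8 of their probes were tested, with a median difference of -0.01. None passed the limits of the study. The *Smco1* probe A_55_P1956403 was higher at -1.20 ± 0.14 against -1.92 ± 0.02 (SD, n = 4 each), a difference of 0.72 or 1.64-fold (limma adjusted p = 0.000795), while no array measured the second *Smco1* probe well above background. *Pak2*, a p21-activated kinase gene, was lower by 0.23 (adjusted p = 0.0121). These were the probes of the 8 with an adjusted p below 0.05, 1 in each direction (background 12.2% and 9.08%). The other 6 tested probes, of *Pigx*, *Cep19*, *Nrros*, *Fbxo45* and *Wdr53*, differed by between -0.14 and 0.07.

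The genes whose pattern was most like that of *Bex6* were found by Pearson correlation of normalised signal over the 8 arrays, which fall into 2 groups by design, so that any probe with a clean step between fathers scores high. Among the closest 5 outside the family were *Tgm3* (0.995), *Alx4* (0.995), *Lce1a2* (0.994) and *Atp9a* (0.993). These 4 were well above background on all 8 arrays. *Alx4*, a homeobox gene of limb and skull, differed by 0.90 on the log2 scale. *Lce1a2*, a cornified envelope gene, differed by 0.77, the phospholipid transporter gene *Atp9a* by 0.64 and the transglutaminase gene *Tgm3* by 0.61. Their steps were smaller than the 3.48 of *Bex6*.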

How the data were processed

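RNA of 8 E8.5 embryos was measured on single-colour Agilent arrays, each labelled from 0.2 µg of total RNA per the labels. The deposited scanner tables hold intensity on a linear scale, made by the authors with Agilent Feature Extraction 11.0.1.1 (per the submitters' processing notes), which subtracts background and was not followed by scaling between arrays. A second deposited table, of all 8 arrays, held these intensity values rounded, within 0.497%. Deposited flags of 0 or 1 are other values, used as filters, and 0 table columns belonged to no sample.

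Of 59305 non-control spots per array, those with an outlier flag were left out, spots of 1 probe were averaged, and log2 processed signal was taken minus the 75th percentile of the array. Probes well above background and above the 20th percentile on at least 4 arrays were tested in limma 3.58.1 (R 4.3.3, lmFit and eBayes, two-sided, Benjamini-Hochberg adjustment over all tested probes), by father alone, by sex with father, and for their interaction, after the script had been tested on simulated data. Gene names came from RefSeq by accession (27235 probes, 48.9%), and windows were aligned with Biopython 1.88 in Python 3.11.15.

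Members, lists and the naming rule were chosen with earlier results of these data known. Named outside the family were, per list, genes called by father or else the 2 probes that differed most, and the 5 genes most like *Bex6*. *Gcm1*, *Sox3*, the second probes of *Armcx3* and *Sox1* and the other neighbours of *Bex6* were named after their values were seen. The results of 3 genes that lists or rule would name are not reported here. Alternatives were quantile and median scaling, normexp background correction (on the median pixel, with offset 50), the series table, a replicate block and leaving out each array. A sex covariate was added for the father comparison only. Other filters on dim probes and a trended robust variance model were run for sex and the interaction only. The number of arrays limits the precision.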

Additional observations from a re-analysis of the deposited data

Results flagged for a closer look

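A single embryo stood apart from the other 3 of its group on 2 Bex probes, among 14 groups of 4 examined. Chance alone sets an embryo apart in about 1 in 20 such groups. *Bex6* on A_55_P2028832 was -4.33 in HET-father replicate 4, a male, where the other 3 lay between -4.98 and -4.87. Without this embryo the father difference was 3.63. *Bex1* on A_65_P16753 was 5.26 in HET-father replicate 3, a female, where the other 3 lay between 5.33 and 5.35.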

How the results depend on the processing

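No tested Bex probe was called by sex or for the interaction in any setting, although with median scaling the lowest adjusted p by sex fell from 0.927 to 0.284 (limma). *Bex6* was not tested where a probe had to be well above background on all arrays. With normexp correction the *Bex6* difference was 2.29 in place of 3.48, and 2.38 in place of 3.55 relative to the family. This setting changed both the input, to the median pixel with its local background, and the offset, and the cause was not tested. With median scaling the median difference of the *Bex1* to *Bex4* probes was -0.24 in place of -0.05, while that of all tested probes moved from -0.03 to -0.22, and 1 list gene (*Gcm1*) was called in place of 0. Leaving out 1 embryo gave 3.41 to 3.63 for *Bex6*, 3.48 to 3.69 relative to the family and -0.06 to -0.02 for the *Bex1* to *Bex4* median.

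Sex differences near 0 changed sign, none of them called. On *Bex1* probe A_65_P16753 the difference became -0.0093 with quantile normalisation and -0.0057 with normexp, and lay between -0.031 and 0.030 when 1 embryo was left out. *Bex3* became -0.0096 with quantile normalisation and lay between -0.020 and 0.053 when 1 embryo was left out. For *Bex6* the range was -0.25 to 0.0068. The replicate block turned the *Bex6* sex difference to 0.13 (limma adjusted p = 0.754), and *Bex3* then had no adjusted p below 0.05 by father. Deviations of embryos with the same replicate number correlated at 0.19, -0.09, -0.13 and 0.15. Those of embryos with different numbers correlated at between -0.19 and 0.21. The spreads are alike, so these values cannot decide whether the numbers pair the embryos.

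Over all tested probes, 370 were called by father, 217 with the replicate block and 143 with normexp. By sex 18 were called, 2 with the replicate block, 5 when a probe had to be above background on all arrays and 12 to 22 otherwise. For the interaction 0 were called, but 3 with normexp and 11 with the trended robust model. Signal over background limits the *Bex6* level in embryos of HET fathers, and 8 arrays from fewer fathers limit every interval.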
